A study of Homo sapiens with 21 samples.

Results

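The comparison described here set the 3 libraries labelled shARID1A.4 against the 3 libraries labelled shARID1A/B.2.3, which are 6 of the 21 libraries of the series. SK-N-BE(2), an established human neuroblastoma cell line with high MYCN expression, was transduced with lentivirus carrying short hairpin RNAs (shRNAs), which lower their target transcript, and RNA was taken 72 h later. The labels name 7 conditions of 3 libraries each: a non-silencing control, shARID1A.2 and shARID1A.4 against ARID1A, shARID1B.2 and shARID1B.3 against ARID1B, and the combinations shARID1A/B.2.3 and shARID1A/B.4.2. Every condition, the control included, was transduced, in 1 cell line. Conditions are named by their labels throughout. The 2 conditions were chosen by measured values: ARID1B was low in both, ARID1A was low only in the libraries labelled shARID1A.4, and differences between shRNAs that were shared across the groups decided which conditions were set against each other. ARID1A and ARID1B are therefore described without a test.

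ARID1A and ARID1B are alternative, mutually exclusive subunits of the BAF complex, the form of the SWI/SNF chromatin remodellers that tends to be found at enhancers. Each holds the core of the complex together, joins it to the ATPase module and brings a DNA-binding domain. In the sympathetic lineage from which neuroblastoma arises, cells can take an adrenergic state, kept by factors such as HAND2 and GATA3, or a mesenchymal state with more matrix and adhesion genes.

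The levels of ARID1A and ARID1B went against the labels. Normalised read counts, which are reads on a gene divided by 1 size factor per library, are given for libraries 1 to 3 in that order. ARID1A (ENSG00000117713.20, chr1:26693236-26782110, GRCh38) was at 2289, 2157 and 2284 in the libraries labelled shARID1A.4, at 5510.3, 5752 and 5714 under the label shARID1A/B.2.3 and at 6097, 6374 and 6463 in the control. The condition labelled as a combination thus kept 89.7% of the control mean of ARID1A, and the condition labelled as a single silencing kept 35.5%. ARID1B (ENSG00000049618.24, chr6:156776020-157210779) was at 3065, 3109.7 and 3126 under the label shARID1A.4, at 2540.5, 2651 and 2607 under the label shARID1A/B.2.3 and at 5793, 5804 and 5791 in the control. ARID1B was therefore low in both, at 53.5% and 44.8% of the control mean, but it was not equal, and was 1.19-fold higher in the libraries labelled shARID1A.4. The fitted difference between both conditions was -1.33 ± 0.03 (SE) on the log2 scale for ARID1A and 0.25 ± 0.02 for ARID1B. In the libraries labelled shARID1B.3, only ARID1A was low, at 2507, 2479.9 and 2449.7, with ARID1B at 6182, 6038 and 6053. The other silenced conditions showed the same pattern by label. ARID1A and ARID1B were at 34.0% and 38.7% of the control mean under the label shARID1A.2. They were at 30.4% and 86.3% under the label shARID1B.2, and at 86.2% and 32.9% under the label shARID1A/B.4.2. Which label belongs to which shRNA cannot be told from these values, and an effect of the shRNAs other than on ARID1A and ARID1B cannot be told apart from that of ARID1A.

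The 6 libraries held 30002640 to 36062937 reads on genes, within the 27954334 to 41077638 of all 21. Mitochondrial genes took 6.96 to 7.31% of the values in the libraries labelled shARID1A.4 and 7.02 to 7.35% under the label shARID1A/B.2.3. The defining markers of the adrenergic lineage were present, with a sum over 9 markers of 81376 to 84268 and 74313 to 78722, and none was at 0. Of 17 markers of other cell types, the T cell gene CD3E, the basal keratin KRT5 and the Schwann cell factor SOX10 were at 0 in all 6 libraries. Summed levels of the endothelial markers were 1.94 to 12 and 8.76 to 11.5, and those of the leukocyte markers 62.9 to 67.8 and 57.3 to 66.2, almost all from PTPRC. The matrix genes DCN and LUM, which also mark fibroblasts, summed to 3975 to 4298 under the label shARID1A.4, 5684 to 5804 under the label shARID1A/B.2.3 and 12768 to 12980 in the control, and the part of other cells in this was not tested.

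Of 18584 genes tested, 10323 (55.5%) were called at an adjusted p under 0.05, 4953 (26.7%) lower and 5370 (28.9%) higher in the libraries labelled shARID1A.4. The libraries of both conditions did not overlap for 11250 genes (60.5%). Most calls were small: 3689 of them lay within 0.25 on the log2 scale and 3148 more within 0.5. Beyond 1 on the log2 scale, 732 genes (3.94%) were called lower and 505 (2.72%) higher. These 1237 genes (6.66%) leaned to lower levels, and more so once low genes were set aside. Among genes with a mean of at least 50 over all libraries, 394 were called lower beyond 1 and 139 higher. The median difference over all genes was 0.02. With the libraries labelled shARID1A/B.4.2 in place of those labelled shARID1A/B.2.3, the counts beyond 1 were 2445 lower and 1705 higher. ARID1B was farther apart in that crossed pairing, at 53.5% of the control mean under the label shARID1A.4 and 32.9% under shARID1A/B.4.2. Its part in these counts was not tested. A p-value here is set against the spread between the 3 libraries of a condition, estimated over all 7 conditions. The series describes the libraries of a condition as biological triplicates. In bulk RNA, fewer cells with a transcript and less of it per cell cannot be told apart.

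The genes called beyond 1 differed in make-up from all genes tested, and the part of their lower levels in this was not tested. Protein-coding genes made up 82.4% of those called lower, 60.6% of those called higher and 77.5% of all genes tested. Long non-coding RNAs made up 11.5%, 33.9% and 14.9%. The rises were often of low genes, with a median mean value of 20.5 against 65.2 for the falls and 480.2 for all genes tested. The median longest transcript had 3438 bases and a GC content of 51.6% for the falls, 2714.5 bases and 48.3% for the rises, and 3190 bases and 48.4% over all genes tested, where 98.6% of the genes had a transcript in GENCODE release 29.

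The 10 largest falls came to between 2.27 and 3.32 on the log2 scale, and receptors and other proteins of the cell surface were among them. LRRC32, which holds latent TGF-beta at the cell surface, was at 17.5, 20.2 and 19 in the libraries labelled shARID1A.4 and 175, 230.3 and 189.7 under the label shARID1A/B.2.3, a log2 difference of -3.32 ± 0.19 (SE, adjusted p = 3.5e-13). APLNR, the receptor for apelin, was the most abundant of the 10 genes with the largest falls, at 1574, 1503 and 1524 against 7237, 7691 and 7329, and fell by 2.27 (SE 0.07, adjusted p = 1.6e-18). The control was at 4426, 4385 and 4432, so that the condition labelled shARID1A/B.2.3 lay above it and the one labelled shARID1A.4 below. The same held for PDZD2, a scaffold protein with several PDZ domains, at 285, 279 and 285 against 1575, 1552 and 1547, with the control at 671, 655 and 644 (difference -2.46 ± 0.07 SE, adjusted p = 2.0e-19). TNNT2, the cardiac troponin T gene, also lay on both sides of the control, at 32, 25 and 24.9 against 179, 169.8 and 191, with the control at 69.3, 57.1 and 76.

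AQP1, a water channel, was at 39.8, 44 and 40.9 in the libraries labelled shARID1A.4 and 265, 296 and 269 under the label shARID1A/B.2.3 (difference -2.70 ± 0.12 SE, adjusted p = 1.4e-15). ANGPT2, an angiopoietin that acts on the endothelial receptor TIE2, was at 21.4, 25 and 30.9 against 173, 176 and 168 (difference -2.71 ± 0.13 SE, adjusted p = 8.5e-15). In both genes both conditions lay below the control. ENTPD3, an enzyme that breaks down extracellular nucleotides, was at 31.1, 17.8 and 16 against 139, 138 and 124. EPPK1, a linker of intermediate filaments, was at 11.7, 8.32 and 13 against 73.9, 63.6 and 77.8. ENTPD3 fell by 2.63 (adjusted p = 2.1e-12) and EPPK1 fell by 2.62 (adjusted p = 2.3e-11). TMEM108-AS1, a long non-coding RNA antisense to TMEM108, was at 11.7, 3.57 and 8.98 against 74.9, 61.5 and 80.8 (difference -3.13 ± 0.27 SE, adjusted p = 5.0e-10), and the strand setting of the authors' counting is not given in the sources used here. FAM156B, which has a near-identical copy, was at 61.2, 91.6 and 34.9 against 671, 532 and 348, but it ranged from 48.2 to 885 within the control alone, and its reads could have been split between the copies (difference -3.08 ± 0.98 SE, adjusted p = 0.0097).

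The 10 largest rises came to between 2.12 and 4.04, and a pair of synaptic genes was among them. NPTX1, a neuronal pentraxin secreted at synapses, was at 2493, 2658 and 2579 in the libraries labelled shARID1A.4 and 446, 462 and 444 under the label shARID1A/B.2.3, with the control at 31.7, 42.5 and 37 (difference 2.51 ± 0.11 SE, adjusted p = 2.4e-15). It was 5.71-fold higher in the former, and both conditions lay far above the control. CPLX3, a complexin that controls transmitter release, was at 656, 816 and 705 against 163, 167 and 165 (difference 2.12 ± 0.27 SE, adjusted p = 3.6e-07). DDX25, an RNA helicase of germ cells, was at 1312, 1274 and 1290.4 against 286, 291 and 286 (difference 2.16 ± 0.05 SE, adjusted p = 2.8e-20), with a narrow spread within each condition. NIBAN1, a gene raised by stress to the endoplasmic reticulum, was at 549.7, 609 and 559 against 125, 108 and 151, from 10.6, 6.72 and 5.14 in the control.

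The 250 bases before the RefSeq start site of CPLX3 (GRCh38.p14, chr15:74826377-74826626, plus strand) are printed 5′ to 3′ so that the letters can be read beside its values. Here and in the promoters of SCGN, RET and ABCA1, which were picked after their values were seen, capitals mark TGANTCA, the site of AP-1 factors, and CACGTG, the E-box that MYC-family factors read. Both motifs read the same on either strand and matches of them do not overlap.
CPLX3: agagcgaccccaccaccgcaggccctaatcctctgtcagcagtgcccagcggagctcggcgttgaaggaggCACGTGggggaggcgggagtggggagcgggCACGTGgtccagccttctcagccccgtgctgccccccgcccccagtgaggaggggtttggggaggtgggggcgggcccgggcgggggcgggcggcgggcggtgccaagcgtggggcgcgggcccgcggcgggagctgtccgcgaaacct
CPLX3 held 2 E-boxes and no TGANTCA. Of 12051 tested genes matched to such a promoter by symbol, 4.02% held TGANTCA and 8.76% CACGTG, against 6.60% and 6.49% of all 27305 promoters. Of the 451 matched genes called lower beyond 1, 7.10% held TGANTCA and 6.21% CACGTG, and of the 254 called higher, 5.51% and 9.06%. A match is a description of these letters and not a bound site.

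SLC16A6, a transporter of monocarboxylates, was at 232, 269.9 and 257 against 58.7, 54.2 and 51.6 (difference 2.19 ± 0.15 SE, adjusted p = 6.6e-12). TENT5A, a non-canonical poly(A) polymerase, was at 444, 454 and 479 against 90.1, 110.5 and 94.4 (difference 2.22 ± 0.12 SE, adjusted p = 5.5e-14). ARHGAP45, a GTPase-activating protein, was at 95.2, 84.4 and 87.8 against 18.2, 18.8 and 20.4, and C15orf65 at 391, 414 and 373 against 93.2, 82.3 and 91.5. The steepest rise was of MIR7-3HG, the host transcript of the microRNA miR-7-3, at 103, 127 and 111 against 13.2, 1.04 and 10.7 (difference 4.04 ± 0.41 SE, adjusted p = 7.3e-09). CPSF1P1, a pseudogene of CPSF1 that can share reads with it, was at 164, 194 and 165 against 90.1, 0 and 25.3, a difference of 3.71 ± 0.84 (SE, adjusted p = 5.7e-04) that came to 1.84 without library 2 labelled shARID1A/B.2.3. With all libraries, the difference of CPSF1P1 was 2.17 by edgeR and 2.18 by DESeq2.

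**Figure D1:**
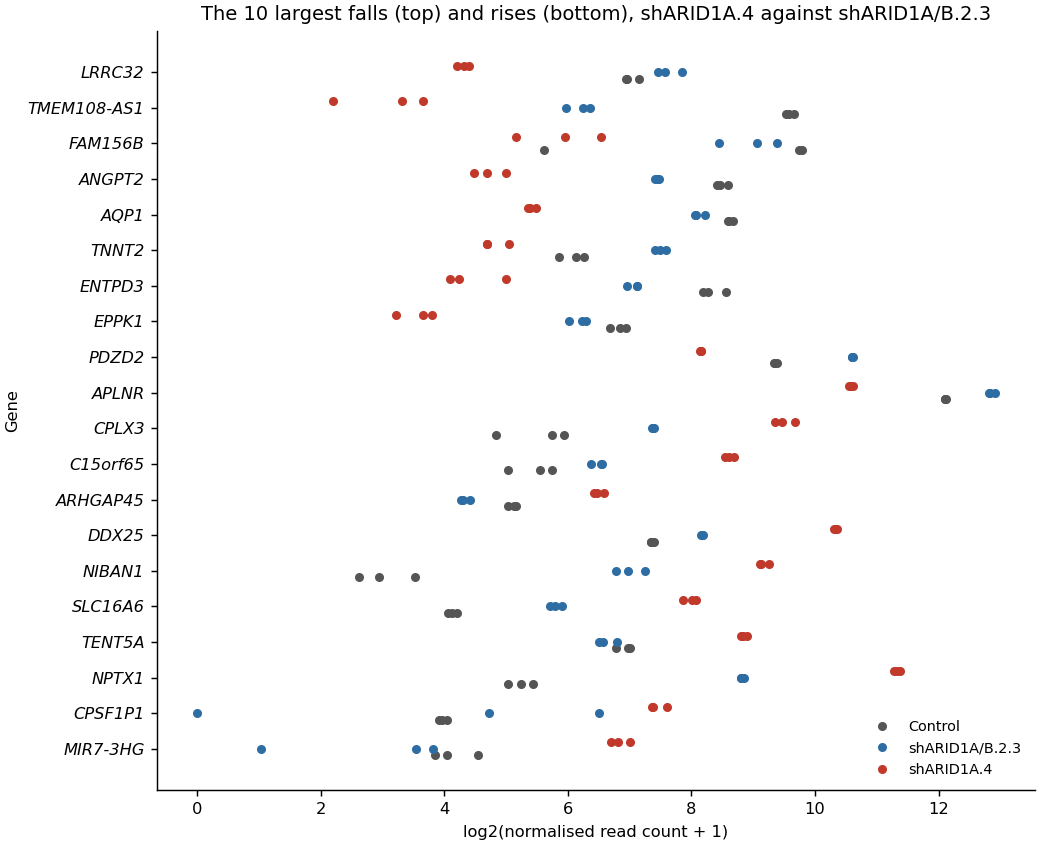
Log2 of the normalised read count plus 1 (x axis) of the 10 genes with the largest falls and the 10 with the largest rises (y axis) among genes called beyond 1 with a mean of at least 50 and no overlap. Each point is a library. LRRC32 lay between 17.5 and 20.2 in the libraries labelled shARID1A.4 and between 175 and 230.3 under the label shARID1A/B.2.3, and NPTX1 between 2493 and 2658 and between 444 and 462.

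Of the 28 SWI/SNF subunit genes measured other than ARID1A and ARID1B, 8 (28.6%) were called lower and 10 (35.7%) higher, near the shares of all genes. DPF3, a neural PHD-finger subunit of BAF, was at 103, 78.5 and 84.8 in the libraries labelled shARID1A.4 and 312, 329 and 301 under the label shARID1A/B.2.3 (difference -1.82 ± 0.09 SE, adjusted p = 2.0e-14), and lay at 422, 340.2 and 368 in the control. It was the only one of these 28 to be called beyond 1. BCL11B, a zinc-finger subunit, was at 207, 208 and 212 against 276, 295 and 280.2 (difference -0.44 ± 0.07 SE, adjusted p = 8.4e-06). SS18 was at 1404, 1324 and 1396 against 838, 791 and 836 and rose by 0.74, and the neuronal actin-like subunit ACTL6B was at 253, 268 and 259 against 157, 144 and 172 and rose by 0.72. SS18 lay above the control in the former and below it in the latter.

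Growth factor receptors and their ligands were mostly lower. Of 27 measured, 15 (55.6%) were called lower, 9 of them beyond 1, and 4 (14.8%) higher, and the median difference was -0.69. That median rested in part on low genes and was -0.26 with a pseudocount of 5 and -0.30 with edgeR. RET, the receptor for GDNF-family ligands that sympathetic neurons use in development, fell most. RET (ENSG00000165731.20, chr10:43077027-43130351) was at 3884, 3601 and 3812 in the libraries labelled shARID1A.4, 18268, 18108 and 17884 under the label shARID1A/B.2.3 and 29923, 31384 and 30687 in the control. It was 4.80-fold lower in the former (difference -2.26 ± 0.03 SE, adjusted p = 1.1e-26). The order from the control to the condition labelled shARID1A/B.2.3, to that labelled shARID1B.3 (9427, 9569 and 9181) and to that labelled shARID1A.4 held with no overlap between libraries. The bases before its start site (chr10:43076819-43077068, plus strand) held neither motif and are rich in G and C.
RET: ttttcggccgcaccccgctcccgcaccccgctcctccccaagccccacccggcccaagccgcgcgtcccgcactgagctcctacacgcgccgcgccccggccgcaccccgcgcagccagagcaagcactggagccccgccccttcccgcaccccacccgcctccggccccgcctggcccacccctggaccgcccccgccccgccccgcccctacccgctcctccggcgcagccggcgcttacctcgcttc

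EDN3, the ligand of the endothelin receptor of the neural crest, was at 99, 113 and 90.8 against 354, 295 and 321, down from 1855, 1751 and 1822 in the control (difference -1.67 ± 0.16 SE, adjusted p = 4.1e-09). NGFR, a low-affinity receptor for neurotrophins, was at 21.4, 30.9 and 13 against 53.7, 43.8 and 74 (difference -1.40 ± 0.21 SE, adjusted p = 5.0e-06). Receptors that rose were the endothelin receptor EDNRA, at 1009, 1062 and 1043 against 513, 628 and 558 (difference 0.88 ± 0.07 SE, adjusted p = 4.1e-10), the BDNF receptor NTRK2, at 47.6, 65.4 and 73.8 against 27.3, 24 and 27.2 (difference 1.20 ± 0.22 SE, adjusted p = 5.1e-05), and ERBB2, whose libraries overlapped, at 173, 207 and 202 against 143, 135 and 178 (difference 0.35 ± 0.08 SE, adjusted p = 0.001).

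Integrins, the heterodimeric receptors that bind cells to the matrix, were lower in 12 of 21 (57.1%) and higher in 4 (19.0%), with a median difference of -0.41. Beyond 1, 6 were called lower and 2 higher. ITGB3, the beta chain of the vitronectin receptor, was at 15.5, 22.6 and 19 in the libraries labelled shARID1A.4 and 89.1, 92.7 and 99.2 under the label shARID1A/B.2.3, with the control at 179, 167 and 158 (difference -2.25 ± 0.21 SE, adjusted p = 2.1e-09). ITGA11, a collagen receptor chain, was at 492, 445 and 471 against 1209, 1291 and 1316 (difference -1.44 ± 0.08 SE, adjusted p = 1.7e-13), and ITGA9 at 103, 126 and 142 against 203, 219.9 and 212 (difference -0.78 ± 0.08 SE, adjusted p = 1.6e-08). ITGA5, the alpha chain of the fibronectin receptor, stood apart in its order. It was at 712, 750.2 and 738 under the label shARID1A/B.2.3, well above the 284, 273 and 299 of the control, and at 261, 271 and 239.5 under the label shARID1A.4 (difference -1.51 ± 0.13 SE, adjusted p = 2.9e-10). The common partner ITGB1, the most abundant of those named, was nearly level at 19428, 19634 and 19691 against 18735, 18947 and 18241 (difference 0.07 ± 0.03 SE, adjusted p = 0.02), a call that was lost when library 3 of either condition was left out. ITGA2B, the platelet chain, was at 46.6, 33.3 and 36.9 against 13.2, 18.8 and 23.4 and rose by 1.06.

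Kinases and adaptors of focal adhesions, which link integrins to actin, were lower in 14 of 21 (66.7%), most of them by little, with a median of -0.26. The tensins led: TNS3 was at 422, 409 and 374 against 1041, 998 and 1099 (difference -1.38 ± 0.10 SE, adjusted p = 3.4e-11), TNS1 at 3939.9, 3713 and 3784 against 7421, 7949 and 7538 (difference -1.0 ± 0.03 SE, adjusted p = 3.4e-18) and TNS2 at 69, 69 and 62.9 against 119, 124 and 117 (difference -0.83 ± 0.13 SE, adjusted p = 8.6e-06). All 3 tensins lay below the libraries labelled shARID1A/B.2.3 with no overlap, and 60.5% of all genes tested had no overlap in either direction. The integrin-linked kinase ILK fell by 0.34 (adjusted p = 2.5e-07) and SRC by 0.15 (adjusted p = 1.2e-04). PTK2B was the single gene called higher, by 0.27 ± 0.09 (SE, adjusted p = 0.015), its libraries overlapped, and the call was lost without library 3 labelled shARID1A.4 or without library 1 labelled shARID1A/B.2.3, and with only the compared conditions fitted.

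Of 14 cadherins, which join cells to each other, 6 (42.9%) were called lower and 1 (7.14%) higher, with a median of -0.49. CDH11, a mesenchymal cadherin, was at 302, 296 and 308 in the libraries labelled shARID1A.4, 888, 879 and 844 under the label shARID1A/B.2.3 and 1852, 1936 and 1894 in the control (difference -1.52 ± 0.06 SE, adjusted p = 1.5e-16). CDH24 was at 1829.6, 1691 and 1734 against 3952, 3963 and 3962 (difference -1.18 ± 0.04 SE, adjusted p = 1.7e-17), and CDH6 at 20.4, 25 and 18 against 62.8, 53.1 and 39.9 (difference -1.25 ± 0.19 SE, adjusted p = 5.5e-06). N-cadherin (CDH2), by far the most abundant of those named, was close at 9368, 9520.4 and 9650.3 against 9899.7, 10096 and 9945 (difference -0.07 ± 0.03 SE, adjusted p = 0.031), and that call was lost without library 1 or 2 labelled shARID1A.4 and without library 2 or 3 labelled shARID1A/B.2.3, with upper-quartile scaling and with no filter on low values. CDH5, the cadherin of endothelium, was at 0 in all 3 libraries labelled shARID1A.4 and at 0, 2.08 and 0 under the label shARID1A/B.2.3.

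Genes of the mesenchymal state were lower in 11 of 18 (61.1%) and higher in 3 (16.7%), with a median of -0.41. LOXL2, an enzyme that cross-links collagen, was at 526, 552 and 529 against 1218, 1223 and 1227, from 3879.5, 3779.7 and 3812 in the control (difference -1.19 ± 0.06 SE, adjusted p = 5.8e-14). SNAI1, a repressor of epithelial genes, was at 403, 407 and 417 against 852, 849 and 890.3, with the control at 644, 694 and 677 in between (difference -1.08 ± 0.05 SE, adjusted p = 2.6e-14), and SNAI2 was at 368, 379 and 438 against 527, 557 and 524 (difference -0.44 ± 0.10 SE, adjusted p = 4.1e-04). The Hippo effector YAP1 was at 73.8, 53.5 and 53.9 against 128, 116 and 125 (difference -1.02 ± 0.10 SE, adjusted p = 4.8e-09), whereas its paralog WWTR1 was at 389, 406 and 358 against 235, 260.5 and 221 and rose by 0.69 (adjusted p = 6.7e-10). TWIST1 (0.33) and VIM (0.12) were also called higher, and NOTCH2 fell by 0.30 (adjusted p = 3.1e-10).

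Matrix proteins were lower in 19 of 33 (57.6%) and higher in 6 (18.2%), with a median of -0.29. Beyond 1, 7 were called lower and 3 higher. The fibrillar and microfibrillar collagens COL5A1 and COL6A3 fell most among abundant members. COL5A1 was at 935, 906 and 889 against 2758, 2995 and 2846 (difference -1.65 ± 0.07 SE, adjusted p = 4.9e-16), and COL6A3 at 443, 398 and 385 against 1177, 1336 and 1321 (difference -1.64 ± 0.09 SE, adjusted p = 7.3e-14). NID2, a nidogen of basement membranes, was at 84.5, 98.7 and 91.8 against 187, 196 and 208. COL5A2, the partner chain of COL5A1, went the other way, at 281, 269 and 278 against 182, 197 and 175 (difference 0.58 ± 0.09 SE, adjusted p = 8.5e-06), as did the laminin chains LAMC3 (0.38, adjusted p = 4.4e-04) and LAMA4 (0.26, adjusted p = 0.0013).

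Transcription factors of the adrenergic state did not move together. Of 15 measured, 5 (33.3%) were called lower and 8 (53.3%) higher, with a median of 0.07. Beyond 1, 1 was called lower and 1 higher, and neither is among those named here. GATA2 was at 9163, 8860.4 and 8961 in the libraries labelled shARID1A.4, 15059.7, 15022 and 15080.0 under the label shARID1A/B.2.3 and 10363, 10794 and 10614 in the control (difference -0.74 ± 0.03 SE, adjusted p = 5.6e-16), and KLF13 at 2212, 2231 and 2142 against 3283, 3219 and 3266 (difference -0.57 ± 0.04 SE, adjusted p = 4.0e-12). MYCN, which is amplified in many neuroblastomas, was at 416868, 426870.0 and 410526 against 218173, 216229 and 221301, with the control at 120355, 123481 and 124192 (difference 0.94 ± 0.03 SE, adjusted p = 1.9e-18). It took 1.17 to 1.20% of all values under the label shARID1A.4 and 0.619 to 0.633% under the label shARID1A/B.2.3. GATA3 was at 10478, 10064 and 9873 against 7809, 8168 and 8154 and rose by 0.33 (adjusted p = 1.4e-10), and TBX2 rose by 0.42 (adjusted p = 9.3e-08).

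**Figure D2:**
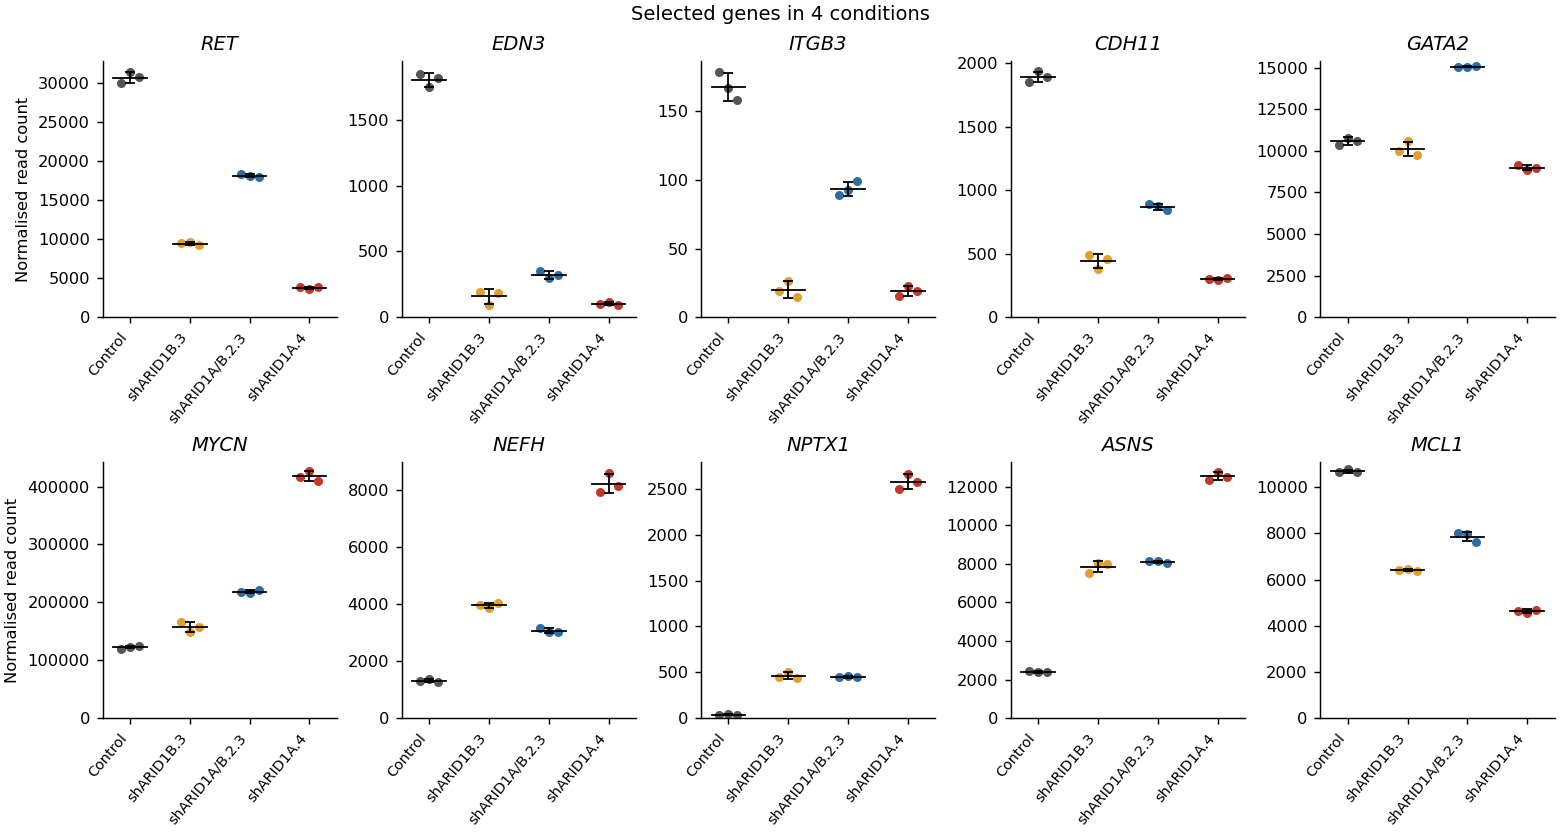
Normalised read counts (y axes) of 10 genes in the control and in the libraries labelled shARID1B.3, shARID1A/B.2.3 and shARID1A.4 (x axes). Points are libraries, lines are means and bars are SD (n = 3 libraries). RET fell from between 17884 and 18268 under the label shARID1A/B.2.3 to between 3601 and 3884 under the label shARID1A.4, and MYCN lay between 410526 and 426870.0 in the latter.

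Genes of catecholamine synthesis and secretory granules were split, with 5 of 15 (33.3%) called lower and 6 (40%) higher. SCGN, a calcium sensor of secretory cells, was at 28.2, 64.2 and 26.9 against 70.9, 72.9 and 93.4 (difference -1.08 ± 0.24 SE, adjusted p = 5.1e-04), with no overlap. The vesicle transporter SLC18A1 was at 522, 576 and 563 against 959.9, 1068 and 1009, both above the 308, 345 and 312 of the control (difference -0.87 ± 0.08 SE, adjusted p = 3.8e-09), and DBH, which makes noradrenaline, was at 872, 913 and 823 against 1189.8, 1078 and 1126 (difference -0.38 ± 0.09 SE, adjusted p = 0.0012). The granin-family gene SCG3 was at 3548, 3710.2 and 3611 against 2248, 2149.7 and 2145 (difference 0.73 ± 0.04 SE, adjusted p = 8.6e-15) and CHGB at 18824, 20052 and 19289 against 12464, 11331 and 11712 (difference 0.71 ± 0.09 SE, adjusted p = 2.2e-07), whereas CHGA came to -0.18 (adjusted p = 0.064). The noradrenaline transporter SLC6A2 rose by 0.31 (adjusted p = 6.2e-09). The promoter of SCGN (chr6:25651965-25652214, plus strand) held 1 TGANTCA and no CACGTG.
SCGN: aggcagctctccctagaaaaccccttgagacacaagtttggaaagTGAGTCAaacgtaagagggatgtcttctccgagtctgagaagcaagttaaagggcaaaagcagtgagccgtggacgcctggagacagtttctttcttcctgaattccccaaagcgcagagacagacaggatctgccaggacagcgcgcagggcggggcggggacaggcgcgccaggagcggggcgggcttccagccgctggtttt

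Among 18 genes of neuronal differentiation, 5 (27.8%) were called lower and 7 (38.9%) higher. The median was 0.01, near that of all genes. The neurofilament gene NEFH was at 7956, 8621 and 8141 against 3173, 3012 and 3018, from 1314, 1368 and 1278 in the control (difference 1.42 ± 0.04 SE, adjusted p = 1.6e-19), and the neurofilament gene NEFM at 14799, 15379 and 14922 against 7131, 7202 and 7258 (difference 1.06 ± 0.02 SE, adjusted p = 6.6e-21). SYN1, a protein of synaptic vesicles, was at 907, 912 and 868 against 539, 535 and 485 (difference 0.79 ± 0.07 SE, adjusted p = 3.0e-10). The microtubule protein MAP2 was at 5106, 4621 and 4834 against 8686, 9043 and 8812 (difference -0.87 ± 0.03 SE, adjusted p = 7.1e-18), and the adhesion molecules L1CAM and NCAM1 fell by 0.73 and 0.56.

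Cell cycle genes were far below the control in both conditions and differed little between them. The 43 S phase genes of Seurat had a median difference from the control of -1.10 in the libraries labelled shARID1A.4 and also of -1.10 under the label shARID1A/B.2.3, and the 54 G2/M genes of -1.07 and -1.18, with the control libraries shared by both values. Between both conditions, 9 S phase genes (20.9%) were called lower and 20 (46.5%) higher, and 5 G2/M genes (9.26%) lower and 29 (53.7%) higher, with medians of 0.10 and 0.13. CCND1, a D cyclin that takes cells from G1 towards S phase, was at 13802, 13741 and 13788 against 13993, 14163 and 13816, with the control at 39766, 39681 and 39769.6 (difference -0.02 ± 0.03 SE, adjusted p = 0.55). MCM3, a subunit of the replicative helicase, was at 6206, 6255 and 6182 against 6751, 6553 and 6615 (difference -0.10 ± 0.02 SE, adjusted p = 4.0e-04). E2F8 was at 224, 243 and 201 against 219, 155 and 209 (difference 0.21 ± 0.10 SE, adjusted p = 0.076), and was called only without library 3 labelled shARID1A.4 or without library 1 or 3 labelled shARID1A/B.2.3.

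A few cell cycle genes departed from this. WEE1, the kinase that restrains CDK1, was at 1068, 1099 and 1109 in the libraries labelled shARID1A.4, 2435, 2428 and 2483 under the label shARID1A/B.2.3 and 2929, 2834 and 2857 in the control (difference -1.16 ± 0.03 SE, adjusted p = 2.4e-19). USP1, a deubiquitinase of DNA repair, was at 701, 680.2 and 659 against 1646, 1554 and 1534 (difference -1.21 ± 0.04 SE, adjusted p = 3.3e-18), and RRM1, a subunit of ribonucleotide reductase, fell by 0.55 (adjusted p = 1.7e-14). Of 20 genes of the G1 machinery, 3 (15%) were called lower and 8 (40%) higher, with E2F5 (-0.56), CCND3 (-0.53) and CCNE2 (-0.53) lower and CDK4 (0.40), E2F6 (0.45) and RBL2 (0.42) higher. Of 8 CDK inhibitors, 3 were called lower and 3 higher. CDKN1C (p57) was at 53.4, 59.5 and 57.9 against 167, 104 and 122, from 291, 262 and 292 in the control (difference -1.16 ± 0.13 SE, adjusted p = 5.1e-08), and CDKN1A (p21) at 167, 206 and 169 against 247, 225 and 263 (difference -0.44 ± 0.14 SE, adjusted p = 0.0088). CDKN2D (p19) was at 41.8, 71.3 and 63.9 against 74.9, 75 and 85.6 (difference -0.44 ± 0.17 SE, adjusted p = 0.036), and its call was lost without library 1 labelled shARID1A.4 and without any library labelled shARID1A/B.2.3, as well as with DESeq2, with only the compared conditions fitted and with no filter on low values.

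The BCL2 family, which sets the threshold of apoptosis, had 6 of 14 genes (42.9%) lower and 5 (35.7%) higher. MCL1, a survival protein, was at 4659, 4543 and 4686 against 7995, 7972 and 7618, from 10642, 10768 and 10659 in the control (difference -0.76 ± 0.02 SE, adjusted p = 1.1e-19). The death-promoting BBC3 was at 213, 175 and 213 against 116, 126 and 95.3 (difference 0.83 ± 0.12 SE, adjusted p = 1.5e-06) and BAX rose by 0.43, whereas HRK and PMAIP1, which also promote death, fell by 0.48 and 0.36.

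Targets of ATF4, the factor of the integrated stress response, were higher in 20 of 26 (76.9%) and lower in 2 (7.69%), with a median of 0.28. Asparagine synthetase (ASNS) was at 12341, 12748 and 12499.5 in the libraries labelled shARID1A.4, 8152, 8120.3 and 8064 under the label shARID1A/B.2.3 and 2470.1, 2388 and 2383 in the control (difference 0.63 ± 0.03 SE, adjusted p = 8.2e-15). The stress factor DDIT3 (CHOP) was at 2490.0, 2730.3 and 2639 against 1314, 1400.5 and 1309 (difference 0.97 ± 0.04 SE, adjusted p = 3.1e-15), and the stress cytokine GDF15 at 249, 287 and 304 against 104, 122 and 131 (difference 1.23 ± 0.40 SE, adjusted p = 0.012). Both conditions lay above the control, by a median of 1.96 under the label shARID1A.4 and 1.63 under the label shARID1A/B.2.3, with shared control libraries. CTH, an enzyme of cysteine synthesis, went the other way, at 37.9, 35.7 and 27.9 against 100.2, 114 and 125 (difference -1.71 ± 0.15 SE, adjusted p = 6.5e-10), and MTHFD2 fell by 0.32 (adjusted p = 2.1e-11).

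Cholesterol genes were higher in 17 of 28 (60.7%) and lower in 7 (25%), by little, with a median of 0.12. ABCA1, which exports cholesterol, was at 401, 445 and 442 against 198, 217 and 219.9, from 35.2, 20.1 and 36 in the control (difference 1.02 ± 0.17 SE, adjusted p = 1.5e-05), and the exporter ABCG1 at 496, 483 and 480.0 against 342, 297 and 307 (difference 0.63 ± 0.09 SE, adjusted p = 2.3e-06). INSIG1, which holds back the sterol sensor, was at 3691, 3763 and 3766 against 2231, 2249.7 and 2099 (difference 0.77 ± 0.03 SE, adjusted p = 1.3e-15). The sterol carrier STARD4 fell by 0.76, MYLIP, which degrades the LDL receptor, by 0.51 and mevalonate kinase (MVK) by 0.37. The promoter of ABCA1 (chr9:104928156-104928405, minus strand) held 1 CACGTG and no TGANTCA.
ABCA1: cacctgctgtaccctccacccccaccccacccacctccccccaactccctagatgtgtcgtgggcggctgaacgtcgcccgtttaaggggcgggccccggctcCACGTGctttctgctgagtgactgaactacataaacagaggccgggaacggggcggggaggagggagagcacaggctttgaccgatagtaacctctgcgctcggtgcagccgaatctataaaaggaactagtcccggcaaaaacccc

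Interferon-stimulated genes were lower in 16 of 24 (66.7%) and higher in 1 (4.17%), with a median of -0.51. Among genes with a mean of at least 50, limma called 10 lower and none higher. STAT2, a factor of interferon signalling, was at 405, 396 and 359 against 583, 679 and 633 (difference -0.71 ± 0.06 SE, adjusted p = 8.4e-11), and the membrane protein IFITM3 at 52.4, 34.5 and 50.9 against 110.4, 101 and 124 (difference -1.28 ± 0.23 SE, adjusted p = 3.9e-05). IFITM2, which is near-identical to IFITM3 and can share reads with it, fell by 1.04 (adjusted p = 8.8e-05). The single gene called higher, HERC5, was at 7.77, 17.8 and 13 against 4.05, 4.17 and 0, a difference of 2.16 that came to 1.37 without library 3 labelled shARID1A/B.2.3.

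Polycomb and trithorax genes moved by little, with 5 of 22 (22.7%) lower and 11 (50%) higher. CBX6, a reader of Polycomb complexes, was at 8652, 8739 and 8643 against 5980.1, 6157 and 6106, from 2666, 2874 and 2787 in the control (difference 0.51 ± 0.03 SE, adjusted p = 1.9e-13), and RNF2 rose by 0.25. BMI1 fell by 0.17 and KDM6A by 0.15. PHC3 fell by 0.16, a call that was lost without library 2 of either condition, with only the compared conditions fitted and with no filter on low values. Of 11 measured markers of other cell types, LUM was at 2737, 3048 and 2848 against 4343, 4281 and 4168 (difference -0.57 ± 0.04 SE, adjusted p = 7.8e-12), DCN fell by 0.26, EPCAM was at 107, 122 and 147 against 63.8, 58.4 and 59.4 and rose by 1.03, and S100B rose by 0.56. Over the whole marker lists, the 4 epithelial markers summed to 135 to 167 against 93.4 to 108 and the 4 Schwann cell markers to 233 to 256 against 177 to 185, and the part of other cells in these was not tested.

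Other comparisons in which ARID1A differed between conditions could be made from libraries that this one did not use, and 2 of them are given here. The libraries labelled shARID1A.2 were set against those labelled shARID1A/B.4.2, the other pair with ARID1B low in both, and those labelled shARID1B.3 against the control, where ARID1B was not low. The libraries labelled shARID1B.2, with ARID1A at 30.4% and ARID1B at 86.3% of the control mean, were not compared here. In the 2 comparisons made, ARID1A was lower by 1.34 (SE 0.03) and 1.35 (SE 0.03), close to the 1.33 here. Beyond 1, 2.78% of all genes were called lower and 2.36% higher in the other pair, and 6.58% lower and 5.2% higher under the label shARID1B.3 against the control. Of the 394 genes called lower beyond 1 with a mean of at least 50, 251 (63.7%) were called lower and 51 higher in the other pair, where 26.4% of all genes were called lower. Of the same genes, 361 (91.6%) were called lower and 7 higher in the libraries labelled shARID1B.3 against the control, where 32% of all genes were. For the 139 genes called higher, the corresponding counts were 75 (54.0%) and 14 against a background of 27.1%, and 125 (89.9%) and 1 against 31.9%. Across the 13675 genes with a mean of at least 50, which are not independent replicates, the differences had a Pearson correlation of 0.75 with those of the libraries labelled shARID1B.3 against the control and 0.30 with those of the other pair. The conditions were put together partly because differences between shRNAs were shared across groups, so the closer likeness to the libraries labelled shARID1B.3 is not independent of that choice.

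**Figure D3:**
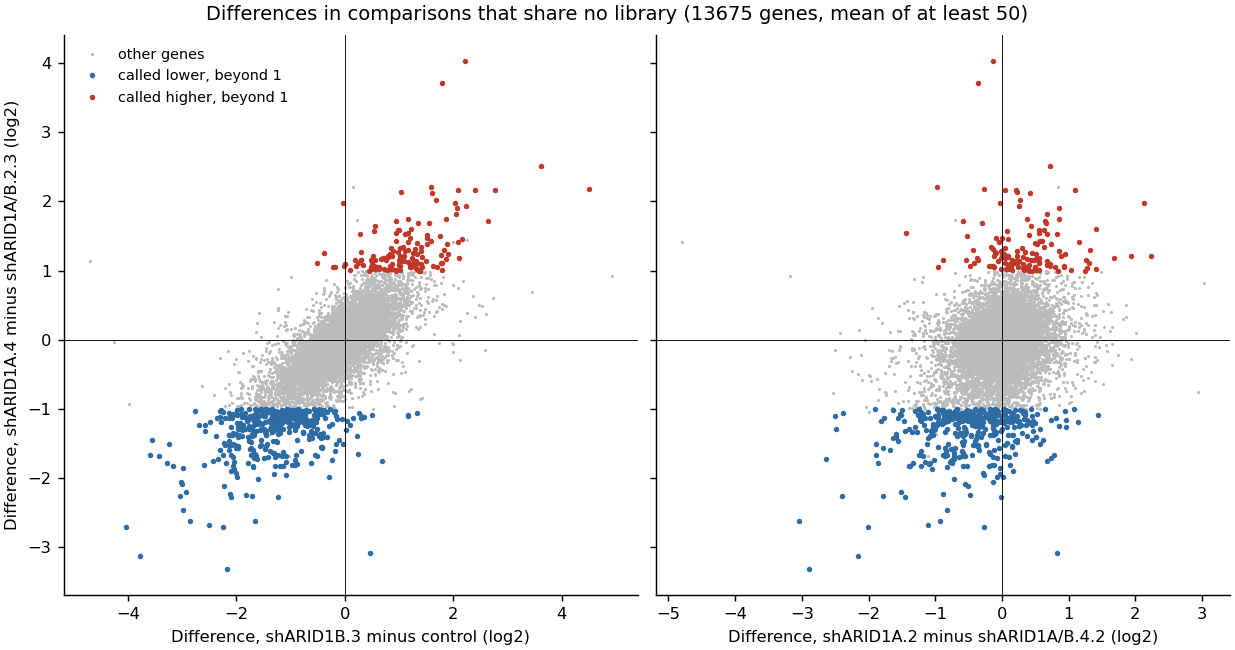
Log2 differences between the libraries labelled shARID1A.4 and shARID1A/B.2.3 (y axes) against those between shARID1B.3 and the control (left x axis) and between shARID1A.2 and shARID1A/B.4.2 (right x axis) for 13675 genes (points). Blue and red mark the 394 genes called lower and the 139 called higher beyond 1, and the Pearson correlations were 0.75 and 0.30.

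The sizes often differed between comparisons. The difference here and that of the other pair differed from each other in 9025 genes (48.6%) at an adjusted p under 0.05, and the difference here and that of the libraries labelled shARID1B.3 against the control in 6718 (36.1%). Of these 6718, 40.2% lay below the difference against the control, a share that was 50.3% with scaling to total reads and 52.0% with upper-quartile scaling. Among the 10 largest falls, 8 were called lower in the other pair and 9 against the control, and among the 10 largest rises 3 and 9, with TENT5A called lower in the other pair. CCND1, which was not called here, was at 12208, 12057 and 12111 against 26111, 28612 and 27159 in the other pair, a difference of -1.17, and both pairs differed by 1.15 (adjusted p = 6.1e-17). RET fell in all 3, by 2.26 here, 2.40 in the other pair and 1.71 under the label shARID1B.3 against the control. ITGB3 fell in all 3 as well, by 2.25, 1.78 and 3.04, and the difference between both pairs was -0.48 (adjusted p = 0.2). PDZD2 was -0.82 in the other pair and -2.99 against the control, and DDX25 was 0.22 and 2.40.

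In the other pair, 26.4% of all genes tested were called lower and 27.1% higher, and 48.6% differed between both pairs. By list, the other pair gave 11 of 21 integrins lower and none higher (limma). Of 21 focal adhesion genes, 14 were lower and 3 higher, and of 27 growth factor receptors and ligands, 12 and 5. Other lists differed in their balance. Of 26 ATF4 targets, 7 were lower and 11 higher there (median 0.07 against 0.28 here). Of 33 matrix proteins, 11 were lower and 11 higher (-0.08 against -0.29). Of 20 genes of the G1 machinery, 12 were lower and 3 higher, and of 15 adrenergic factors, 6 and 3. The mesenchymal median was -0.09 there and -0.41 here. Interferon-stimulated genes had the opposite balance, with 3 lower and 9 higher in the other pair, a median of 0.27 there against -0.51 here, and 17 of 24 genes differing between both pairs. Of the S phase genes, 32 of 43 were lower in the other pair, and 34 differed between both pairs. Of the G2/M genes, 28 of 54 were lower there and 41 differed. Under the label shARID1B.3 against the control, 32% of all genes were called lower and 31.9% higher. In that comparison, interferon-stimulated genes were 17 lower and 2 higher and ATF4 targets 2 and 24. Matrix proteins were 21 and 5 and mesenchymal genes 14 and 0. Cholesterol genes were 19 and 6, against 7 and 17 here. S phase genes were 24 and 9, against 9 and 20 here, and G2/M genes 31 and 8, against 5 and 29.

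Both conditions with ARID1A and ARID1B low (labelled shARID1A.2 and shARID1A.4) were set against both with ARID1B low (labelled shARID1A/B.2.3 and shARID1A/B.4.2). Of the 394 falls, 384 (97.5%) were called lower in that contrast and 1 higher, and of the 139 rises, 134 (96.4%) were called higher and none lower, by limma, where 28.7% of all genes were called lower and 30.5% higher. These libraries include the 6 on which the genes were picked, so these counts are in part fixed by that choice, and the other pair alone gave the 251 and 75 above. The median sizes were smaller, at -0.88 for the falls, against -1.22 here, and 0.78 for the rises, against 1.19. These genes were picked for sizes beyond 1 here, so smaller sizes in that contrast are in part fixed as well. RET kept its size (-2.33), as did ITGB3 (-2.02), LOXL2 (-1.07) and ABCA1 (1.03), whereas MYCN (0.53) and NEFM (0.29) came out smaller. Of the named genes, 9 changed sign: ITGB1 came to -0.43, CBX6 to -0.14, DCN to 0.32 and BCL11B to 0.11, with TBX2, CDKN3, LAMA4, MTHFD2 and MCM3 within 0.08 of 0. FAM156B (-1.12), CHGB (0.10), GDF15 (0.61), SNAI2 (-0.11), E2F5, NCAM1, RNF2, KDM6A, CENPA, ANP32E, CDKN2D and PHC3 were no longer called, and the rises of TENT5A (0.62) and SLC16A6 (0.96) shrank, while CCND1 was called at -0.60.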

How the data were processed

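RNA of 21 SK-N-BE(2) samples was sequenced from stranded mRNA libraries. The submitters' processing notes name STAR 2.5.3a, RSEM 1.3.0 and DESeq2 1.26.0 with GRCh38. The deposited values are a signal, reads per gene divided by the authors' size factor of each library; 100% of values gave whole reads within 0.1 read. The files also hold the authors' own fold changes and p-values, which were not used here.

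Genes kept by edgeR's filterByExpr (18584 of 60728) were fitted on log2(value + 1) with limma 3.58.1 (trend, R 4.3.3) over all 7 conditions, with 14 residual degrees of freedom and Benjamini-Hochberg adjustment. The pseudocount of 1 shrinks log2 differences of low genes, but a single very low library can widen them, as for CPSF1P1. A gene was called at an adjusted p under 0.05. Replicates were compared by chi-square on counts and exceeded sampling noise in all 6 pairs. Alternatives were edgeR 4.0.16 and DESeq2 1.42.0 on recovered reads, other scalings, pseudocounts of 0.5 and 5, filters, samples and pairings. The fit was tested on simulated data. Coordinates are from GENCODE 29.

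The members, the 20 gene lists (the cell cycle lists from Seurat 5.3.0) and the tests were chosen with earlier results of these data known. Named genes were ARID1A and ARID1B, the 10 largest falls and rises beyond 1 with a mean of at least 50 and no overlap, up to 3 called members of each list in each direction with a mean of at least 50, and listed members that the study names. NTRK2, HERC5 and several marker genes were added after their values were seen. Some results are not reported here.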

Additional observations from a re-analysis of the deposited data

Results flagged for a closer look

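The difference between the libraries labelled shARID1A.4 and shARID1A/B.2.3 was set against the same kind of difference in other libraries, by limma's test of the difference between both. It differed from that of the libraries labelled shARID1A.2 against shARID1A/B.4.2 in 9025 genes and from that of the libraries labelled shARID1B.3 against the control in 6718. Of the named genes, those with a difference beyond 1 and an adjusted p under 0.05 are given here in log2 units, as the difference here minus the other. Most named genes were picked for large differences here, so larger sizes here than elsewhere are in part fixed by that choice.

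Against the other pair, the difference here was lower in FAM156B (-3.91), ANGPT2 (-2.45), ENTPD3 (-1.70), CTH (-1.64), PDZD2 (-1.63) and TNNT2 (-1.58). It was also lower in COL5A1 (-1.47), IFITM2 (-1.36), DPF3 (-1.30), DCN (-1.17), IFITM3 (-1.15) and YAP1 (-1.13). So it was in USP1 (-1.12), BCL11B (-1.10), E2F5 (-1.07), COL6A3 (-1.05) and ITGA11 (-1.05). The difference here was higher in MIR7-3HG (4.17), CPSF1P1 (4.06), TENT5A (3.18), SLC16A6 (2.46), HERC5 (2.36), ARHGAP45 (2.12), DDX25 (1.95) and C15orf65 (1.90). It was also higher in NPTX1 (1.79), CPLX3 (1.70), NEFM (1.54), CBX6 (1.31), CHGB (1.22), CCND1 (1.15), DDIT3 (1.04) and ITGB1 (1.01).

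Against the libraries labelled shARID1B.3 and the control, the difference here was lower in FAM156B (-3.54), SLC16A6 (-2.31) and LRRC32 (-1.15). It was also lower in NPTX1 (-1.10), ASNS (-1.07) and APLNR (-1.04). Of these, SLC16A6, NPTX1 and ASNS rose here, but by less. The difference here was higher in EDN3 (1.91), MIR7-3HG (1.82), LAMA4 (1.37), AQP1 (1.34) and DBH (1.33). It was also higher in C15orf65 (1.10), CHGB (1.10), LOXL2 (1.10) and ITGA2B (1.08). Of these, EDN3, AQP1, DBH and LOXL2 fell here, but by less. FAM156B varied widely within conditions.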

How the results depend on the processing

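The counts of genes called lower (4953) and higher (5370) stayed within 1.5 times under all alternatives run, from 4507 to 6966 and from 4781 to 6860, and the counts of differing genes from 8238 to 9168 and from 5832 to 6789. The counts beyond 1 (732 lower, 505 higher) came to 394 and 139 with a mean of at least 50, to 395 and 278 with no pairing of conditions, and to 2445 and 1705 with the crossed pairing, shARID1A.4 against shARID1A/B.4.2. With a pseudocount of 5, 267 were higher. Low genes are left out by the first of these and other libraries enter the next pair; beyond that the cause was not tested. Leaving out 1 library at a time gave 4618 to 4680 lower, 4922 to 5051 higher, 709 to 779 and 472 to 528 beyond 1, and 8647 to 8796 and 6251 to 6472 differing genes. Without pairing, a comparison chosen after seeing the data for the named genes, 9 genes changed sign: BCL11B (0.11), CBX6 (-0.14), CDKN3 (-0.062), DCN (0.32), ITGB1 (-0.43), LAMA4 (-0.052), MCM3 (0.0014), MTHFD2 (0.073) and TBX2 (-0.056). Same-numbered libraries did not deviate together (correlations 0.003, -0.042 and -0.053), so their numbers were not taken as pairs, and a replicate block gave 4943 lower and 5348 higher, 730 and 502 beyond 1, and 9027 and 6713 differing genes.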
